A study of Mus musculus with 12 samples.

Results

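The genes described here are 10 genes of prostaglandin E2 synthesis, sensing and breakdown, chosen by name: Pla2g4a, Ptgs1, Ptgs2, Ptges, Ptges2, Ptges3, Ptger1, Ptger2, Ptger4 and Hpgd. They were followed through a supernatant transfer between 2 mouse cell lines, PSC4, a line of pancreatic stellate cells (stromal cells that can become fibroblasts), and KPC4, a line of pancreatic cancer cells. Of the 10 genes, 8 had counts in the PSC4 table of 16386 genes and 9 in the KPC4 table of 15309 genes, and 8 passed the filter on low counts in each line. Ptger2 in both lines and Hpgd in PSC4 were not analysed here.

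There were 4 groups of 3 biological replicates each, which made 12 RNA-seq libraries. PSC4 Control-SU cells received medium conditioned by vehicle-treated KPC4 cells for 24 h, and PSC4 Gem-SU cells received medium from KPC4 cells given gemcitabine, a nucleoside analogue used as chemotherapy. The donor cells had been exposed to vehicle or 10 µM drug for 6 h, washed, and left for 14 h to condition starvation medium. For the second step, PSC4 cells spent 6 h in one of these supernatants and, after a wash, conditioned fresh starvation medium for 18 h. The resulting Control-PSC-SU or Gem-PSC-SU was placed on KPC4 cells for 24 h, which gave KPC4 Control-PSC-SU and KPC4 Gem-PSC-SU. All 4 groups are cultures of an established line in a supernatant made under starvation, with no fresh-medium group, and the labels give no genotype for either line. Both lines were grown in DMEM with 10% FBS. The labels call the libraries of a group biological replicates and say no more of how the cultures were separated, so p-values measure the spread between these libraries.

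Prostaglandin E2 is made from arachidonic acid, which cytosolic phospholipase A2 releases from membranes, cyclooxygenases convert to prostaglandin H2, and prostaglandin E synthases turn into the final product. Cyclooxygenase 1 (Ptgs1) is present in many resting cells, whereas cyclooxygenase 2 (Ptgs2) is typically induced by growth factors, cytokines and stress. Prostaglandin E2 leaves the cell and acts on G-protein-coupled receptors, of which EP2 and EP4 raise cAMP and EP1 raises calcium. In pancreatic tumours the pathway is known in both cancer cells and fibroblasts. The values below are transcript levels, and prostaglandin E2 itself was not analysed here.

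Levels are CPM, counts scaled to a common library total, with TMM factors over all 12 libraries. Tests are quasi-likelihood fits in edgeR, adjusted by Benjamini-Hochberg over all genes tested, and a gene was called where the adjusted p was under 0.05. Library totals lay between 29559414 and 38138356 counts in PSC4 and between 26354328 and 34744150 counts in KPC4. Of 12 fibroblast markers, 11 reached a mean of 1 CPM in PSC4 Control-SU, and of 12 epithelial markers 11 did in both KPC4 groups. In PSC4 the summed fibroblast markers lay between 8099 and 8775 CPM with Control-SU and between 2385 and 3559 CPM with Gem-SU, and their part in the results was not tested. In KPC4 this sum lay between 2464 and 2809 CPM with Control-PSC-SU and between 1829 and 2271 CPM with Gem-PSC-SU, with Vim alone at means of 2613 and 2082 CPM. The sum thus overlapped between KPC4 Control-PSC-SU and PSC4 Gem-SU. In PSC4, the mean went up with Gem-SU for Acta2 (15.8 to 26.1 CPM) and Des (2.85 to 3.27 CPM). It fell for the other fibroblast markers with counts. The summed epithelial markers did not exceed 16.6 CPM in any PSC4 library, against at least 5921 CPM in every KPC4 library. In these bulk cultures, a change in the share of a cell state and a change in RNA per cell cannot be told apart, nor can fewer cells of a type and less RNA per cell.

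In PSC4, 2 of the 8 tested genes changed, Ptgs2 and Ptger4, and both were higher with Gem-SU. Over all 13347 genes tested in PSC4, 46.3% were called and 24.3% were called as higher, so the share of members called was not above that of all genes. The median log2 change of the 8 members was 0.24, beside -0.0032 over all genes tested. The groups did not overlap for 4 of the 8 members, against 56.7% of all genes tested. In KPC4, no member was called with the libraries taken as unpaired. That held for all 13236 genes tested there (0.00% called, 2251 with an unadjusted p under 0.05), and DESeq2, run as an alternative, called 6.22% of all genes there and 1 member, Ptgs2. The groups did not overlap for 1 of the 8 members in KPC4, Ptgs2, against 22.6% of all genes tested. With the replicate number as a block in KPC4, 8.85% of all genes were called, among them 1 member, Ptgs2.

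**Figure D1:**
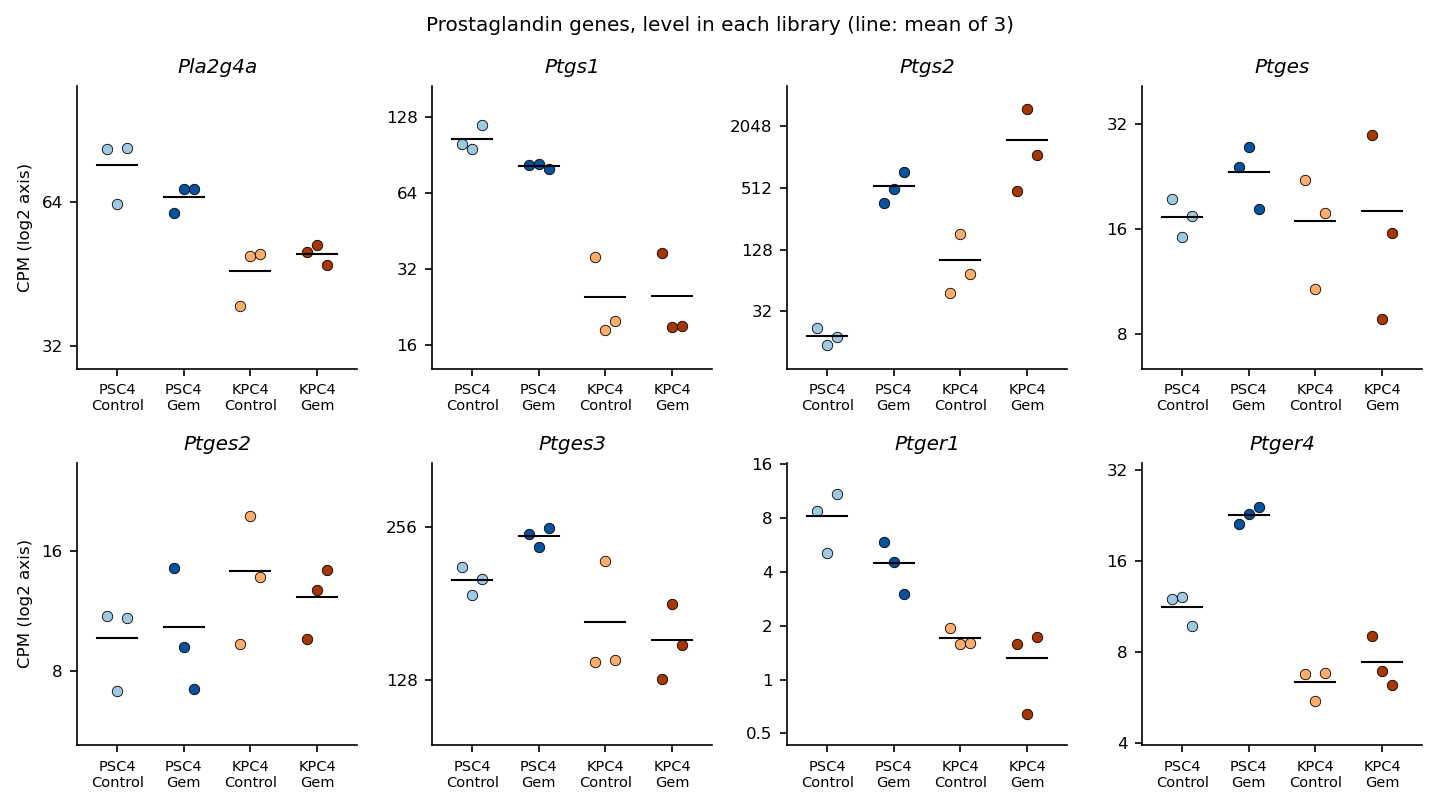
Level of each tested prostaglandin gene in every library, in CPM on a log2 axis (panels have different ranges), for the 4 groups; points are libraries and lines are means of 3. In Ptgs2 the Gem points lie above the Control points in both lines, and in Ptger4 they do so in PSC4, between 21.3 and 24.2 CPM.

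Pla2g4a encodes cytosolic phospholipase A2 alpha, the enzyme that supplies arachidonic acid to the cyclooxygenases. In PSC4 its level was 82.6, 63.2 and 82.7 CPM with Control-SU and 60.5, 67.9 and 67.9 CPM with Gem-SU. The groups overlapped, and the log2 change was -0.17 (SE 0.15, adjusted p = 0.378). In KPC4 its level was 38.7, 49.2 and 49.8 CPM with Control-PSC-SU and 50.2, 52.0 and 47.1 CPM with Gem-PSC-SU, with a log2 change of 0.11 (SE 0.18, adjusted p = 0.772). No change of Pla2g4a was called in either line, and the 95% intervals ran from -0.51 to 0.17 in PSC4 and from -0.30 to 0.53 in KPC4.

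Ptgs2 showed the largest change among the members in both lines. In PSC4 it measured 21.8, 15 and 17.9 CPM in the 3 Control-SU libraries and 367, 496 and 730 CPM in the 3 Gem-SU libraries. Every Gem-SU library was far above every Control-SU library, and replicate 3 was the highest. The mean went from 18.2 ± 3.43 CPM (SD, n = 3) to 531 ± 184 CPM (SD, n = 3), a fitted 30.1-fold increase (log2 4.91, SE 0.30, adjusted p = 3.09e-05). By log2 change Ptgs2 ranked 80 from the top of 13347 genes tested in PSC4. Per kilobase of exon, its level stood between ranks 7583 and 8695 of 16329 genes in the Control-SU libraries and between ranks 140 and 496 in the Gem-SU libraries.

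In KPC4, Ptgs2 measured 48.1, 182 and 74.0 CPM with Control-PSC-SU and 476, 2997 and 1086 CPM with Gem-PSC-SU. The groups did not overlap, but replicate 2 was the highest library in both of them, and the spread within a group was wide. The log2 change was 3.93 (SE 0.74, 95% interval 2.24 to 5.61), a fitted 15.2-fold difference that was not called (adjusted p = 0.112). The KPC4 libraries with the same replicate number deviated from their group means together, and within numbers 1, 2 and 3 the Gem-PSC-SU level was 9.90, 16.5 and 14.7 times the Control-PSC-SU level. With the replicate number as a block the log2 change was 3.74 (SE 0.18) and was called (adjusted p = 2.35e-04). Leaving out number 2 from both groups, an alternative chosen after seeing the data, gave a log2 change of 3.68 with adjusted p = 0.00993. Leaving out single libraries gave adjusted p-values from 0.0126 without Gem-PSC-SU replicate 1 to 0.509 without Control-PSC-SU replicate 3, and also a call without Control-PSC-SU replicate 2 (adjusted p = 0.0397). By log2 change Ptgs2 ranked 31 from the top of 13236 genes tested in KPC4. In the authors' deposited table the log2 fold change of Ptgs2 was 4.87 in PSC4 (adjusted p = 8.54e-52) and 3.92 in KPC4 (adjusted p = 0.00199).

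Ptgs1 went the other way in PSC4, by a small amount. It measured 100.3, 95.5 and 119 CPM with Control-SU and 83.0, 83.1 and 79.8 CPM with Gem-SU. All 3 Gem-SU libraries were below all 3 Control-SU libraries, yet the log2 change of -0.31 (SE 0.13) was not called (adjusted p = 0.0911). The authors' deposited table lists -0.38 with adjusted p = 0.0140 for it. In KPC4, Ptgs1 measured 35.8, 18.5 and 19.9 CPM with Control-PSC-SU and 37.0, 18.9 and 19.0 CPM with Gem-PSC-SU. Those values were nearly the same within each replicate number, and the log2 change was 0.0042 (SE 0.35, adjusted p = 0.996).

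Compared per kilobase of exon, the cyclooxygenase transcripts of PSC4 were mostly Ptgs1 with Control-SU and mostly Ptgs2 with Gem-SU. Ptgs2 made up 15.6%, 11.7% and 11.3% of the Ptgs1 and Ptgs2 transcript level in the Control-SU libraries and 79.0%, 83.5% and 88.6% in the Gem-SU libraries. In KPC4, Ptgs2 made up 53.2%, 89.3% and 75.9% with Control-PSC-SU and 91.6%, 99.3% and 98.0% with Gem-PSC-SU. In neither line did the groups overlap, and the two-sided exact permutation p was 0.1 in each, the smallest that 3 libraries against 3 allow (0.133 after adjustment over 12 such tests). The summed level of both genes per kilobase went from 31.0 ± 3.36 (SD, n = 3) to 137 ± 39.7 CPM per kilobase (SD, n = 3) in PSC4. It went from 28.5 ± 13.8 (SD, n = 3) to 338 ± 285 CPM per kilobase (SD, n = 3) in KPC4.

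**Figure D2:**
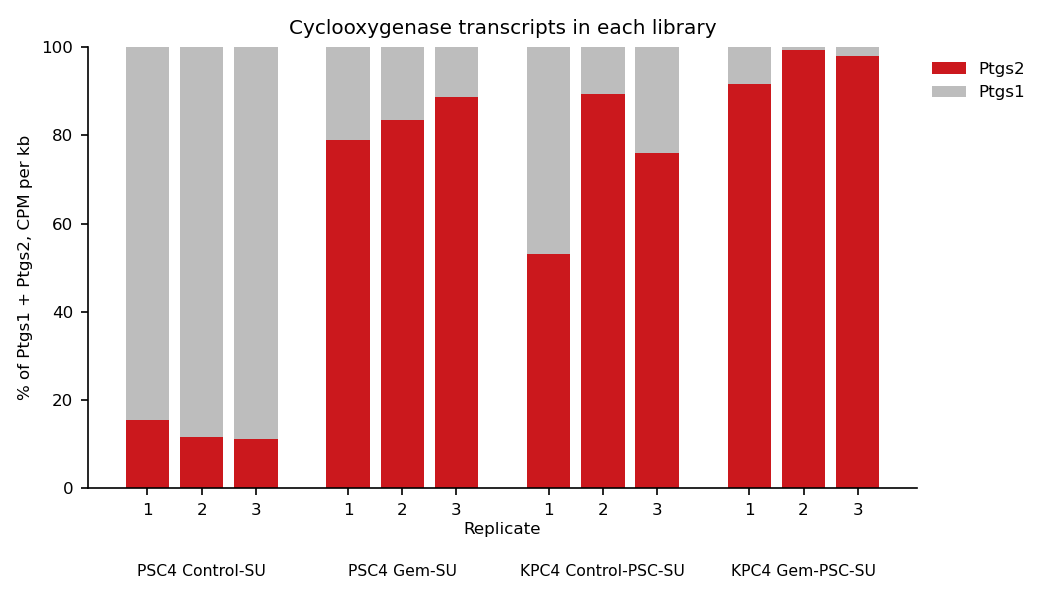
Share of Ptgs2 (red) and Ptgs1 (grey) in the summed cyclooxygenase transcript level per kilobase of exon, in percent, for each of the 12 libraries. In the PSC4 libraries Ptgs2 lies between 11.3% and 15.6% with Control-SU and between 79.0% and 88.6% with Gem-SU, and in KPC4 it is above 50% in all 6 libraries.

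The sequences upstream of Ptgs2 and Ptger4, the members called in PSC4, are shown with that of Ptgs1, whose groups lay apart in the opposite direction. They are the 250 bases before the annotated RefSeq start of each gene in GRCm38.p6, 5′ to 3′ on the strand of the gene. They lie at chr1:150099781-150100030 (plus strand) for Ptgs2, chr15:5244188-5244437 (minus strand) for Ptger4 and chr2:36230176-36230425 (plus strand) for Ptgs1. Capitals mark matches to any of the motifs searched on both strands, which are named after the sequences.
Ptgs2: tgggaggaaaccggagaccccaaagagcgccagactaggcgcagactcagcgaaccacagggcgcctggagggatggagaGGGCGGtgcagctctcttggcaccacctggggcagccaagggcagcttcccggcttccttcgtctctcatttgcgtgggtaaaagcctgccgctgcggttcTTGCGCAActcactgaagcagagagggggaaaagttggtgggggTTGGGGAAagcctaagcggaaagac
Ptger4: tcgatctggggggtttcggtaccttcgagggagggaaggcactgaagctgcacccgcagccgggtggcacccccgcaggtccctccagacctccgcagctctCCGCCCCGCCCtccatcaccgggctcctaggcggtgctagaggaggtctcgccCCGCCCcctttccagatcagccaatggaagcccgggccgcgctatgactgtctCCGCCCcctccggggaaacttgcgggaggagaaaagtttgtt
Ptgs1: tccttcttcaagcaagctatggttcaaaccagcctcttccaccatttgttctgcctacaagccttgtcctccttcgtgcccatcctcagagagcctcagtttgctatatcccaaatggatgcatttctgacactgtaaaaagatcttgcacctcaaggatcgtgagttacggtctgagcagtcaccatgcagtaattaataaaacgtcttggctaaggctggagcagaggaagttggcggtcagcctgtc
The motifs were a TATA box (TATAA), the core of the cAMP response element (TGACG), an E-box (CACGTG), an AP-1 site (TGANTCA), a C/EBP site (TTNNGNAA), a GC box (GGGCGG) and the 10-base NF-kappaB consensus. The Ptgs2 window held 2 C/EBP matches, the first of them from 69 to 62 bases and the second from 25 to 18 bases before the start. It also held 1 GC box from 170 to 165 bases before the start. The Ptger4 window held 4 GC boxes on the opposite strand, 2 of which overlap, and the Ptgs1 window held none of the 7 motifs. Among 32851 windows of the same length, 36.8% held a C/EBP match, 32.7% a GC box, 22.8% a TATA box, 17.8% the cAMP core, 6.75% an AP-1 match, 6.02% an E-box and 3.90% the NF-kappaB consensus. A match describes the letters only, and a motif that is not in these windows may lie outside them.

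The prostaglandin E synthases convert prostaglandin H2 to prostaglandin E2, and none of the 3 was called in either line. Ptges, the inducible microsomal synthase that is often coupled to cyclooxygenase 2, measured 19.5, 15.2 and 17.5 CPM with Control-SU and 24.0, 27.5 and 18.3 CPM with Gem-SU in PSC4. The groups overlapped through Gem-SU replicate 3, and the log2 change was 0.47 (SE 0.20, adjusted p = 0.0860). Without that library the log2 change was 0.62 and was called (adjusted p = 0.0453). In KPC4, Ptges measured 22.2, 10.8 and 17.8 CPM with Control-PSC-SU and 29.7, 8.83 and 15.6 CPM with Gem-PSC-SU. Replicate 2, the highest library for Ptgs2, was the lowest for Ptges in both KPC4 groups, and the log2 change was 0.078 (SE 0.43, adjusted p = 0.942).

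Ptges3, which also serves as the HSP90 co-chaperone p23, had the highest level of the synthases per kilobase. It measured 213, 189 and 202 CPM with Control-SU and 247, 234 and 255 CPM with Gem-SU in PSC4. These groups did not overlap, and the log2 change of 0.33 (SE 0.14) was not called (adjusted p = 0.0752), whereas DESeq2, which called 51.1% of all genes in PSC4, called it (adjusted p = 0.0381). The authors' deposited table lists an adjusted p of 0.0539 for Ptges3 in PSC4. In KPC4, Ptges3 lay between 139 and 220 CPM with Control-PSC-SU and between 129 and 181 CPM with Gem-PSC-SU (log2 change -0.12, SE 0.23, adjusted p = 0.826). Per kilobase, Ptges3 stood between ranks 224 and 649 in every library of both lines. Ptges2, a second membrane-associated synthase, lay between 7.10 and 14.5 CPM in PSC4 and between 9.34 and 19.6 CPM in KPC4, and its groups overlapped in both lines. Its log2 change was 0.14 in PSC4 (SE 0.30, adjusted p = 0.722) and -0.21 in KPC4 (SE 0.30, adjusted p = 0.739).

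Ptger4 encodes the receptor EP4, which couples prostaglandin E2 to cAMP, and it was the second member to rise in PSC4. It measured 12, 12.2 and 9.77 CPM with Control-SU and 21.3, 22.9 and 24.2 CPM with Gem-SU. The lowest Gem-SU library was well above the highest Control-SU library. The mean went from 11.3 ± 1.34 CPM (SD, n = 3) to 22.8 ± 1.46 CPM (SD, n = 3), a fitted 2.08-fold increase (log2 1.06, SE 0.18, adjusted p = 0.00174). The exons of Ptger4 overlap those of Ttc33 and Gm15937 on the opposite strand by 82 and 1015 bases. In PSC4, Ttc33 fell by 0.85 on the log2 scale (adjusted p = 0.00325) and Gm15937 had at most 5 counts in a library. In KPC4, Ptger4 measured 6.78, 5.53 and 6.84 CPM with Control-PSC-SU and 9.08, 6.93 and 6.23 CPM with Gem-PSC-SU. The KPC4 groups overlapped, with a log2 change of 0.21 (SE 0.26, 95% interval -0.37 to 0.79, adjusted p = 0.696).

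Ptger1 encodes EP1, the calcium-coupled receptor, and was the least abundant tested member in KPC4 per kilobase. In PSC4 it measured 8.77, 5.09 and 11 CPM with Control-SU and 5.90, 4.55 and 3.03 CPM with Gem-SU. The groups overlapped, and the log2 change was -0.83 (SE 0.35, adjusted p = 0.0802), while DESeq2 gave -0.84 and called it (adjusted p = 0.0412). The authors' deposited table lists -0.99 for it with adjusted p = 0.0934. It was also called without Control-SU replicate 2 (adjusted p = 0.0235) and without Gem-SU replicate 1 (adjusted p = 0.0362). In KPC4 it lay between 1.57 and 1.95 CPM with Control-PSC-SU and between 0.644 and 1.73 CPM with Gem-PSC-SU (log2 change -0.39, SE 0.48, adjusted p = 0.697). No source used here states that strand was used in counting, so the Ptger1 counts may hold reads from the opposite strand, and its values in both lines are uncertain.

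Hpgd encodes the 15-hydroxyprostaglandin dehydrogenase that inactivates prostaglandin E2. In KPC4 it had 27, 19 and 7 counts with Control-PSC-SU and 0, 7 and 8 counts with Gem-PSC-SU. The groups overlapped, and the gene was below the filter on low counts and was not tested. The authors' deposited table lists a log2 fold change of -1.63 for it with adjusted p = 0.519.

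**Figure D3:**
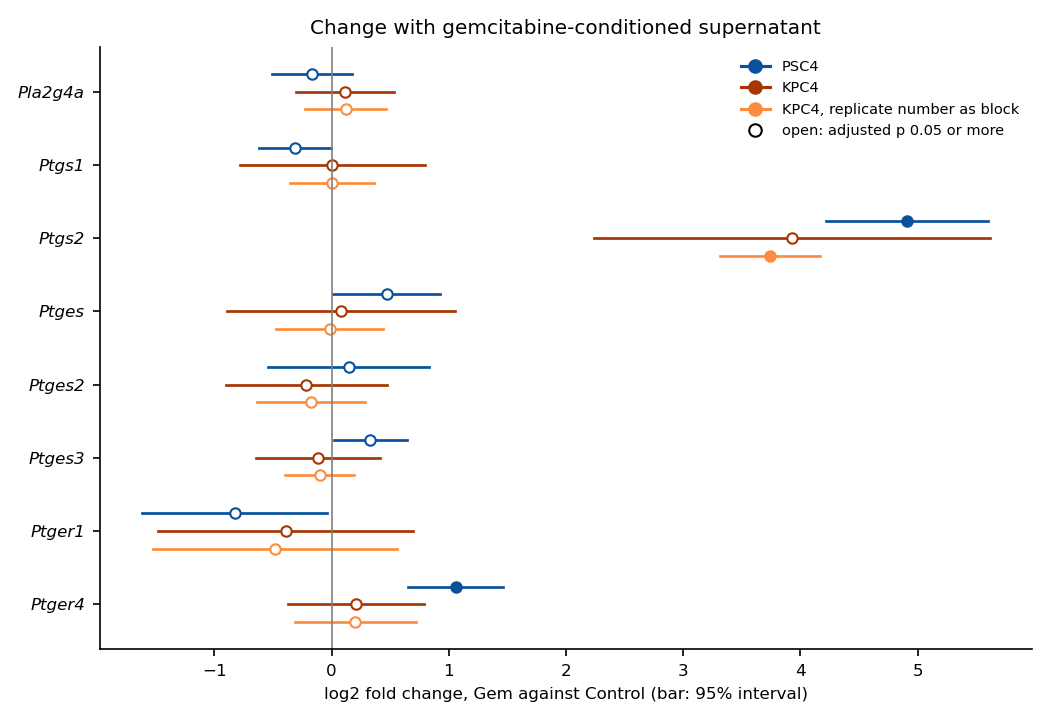
Log2 fold change of each tested member, Gem against Control, for PSC4 (blue), KPC4 (dark orange) and KPC4 with the replicate number as a block (light orange); bars are 95% intervals and filled points have an adjusted p under 0.05. Ptgs2 stands at 4.91, 3.93 and 3.74, and all other values of the members lie between -0.83 and 1.06.

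The next comparison asked which line carries more transcript of the enzymes that make prostaglandin E2 and which carries more of its receptors. In the control groups, 5 of the 8 members differed between the lines, 4 higher in PSC4 and 1 higher in KPC4. Over all 13632 genes tested, 42.9% differed and 22.3% were called as higher in PSC4. The groups did not overlap for 5 of the 8 members, against 57.2% of all genes tested. Line, conditioned medium and the table that holds the counts go together here and cannot be told apart.

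Among the enzymes, Ptgs1 was 4.24-fold higher in PSC4 (log2 2.08, SE 0.30, adjusted p = 6.19e-05) and Pla2g4a was 1.66-fold higher (log2 0.73, SE 0.16, adjusted p = 0.00258). Ptgs2 was 5.55-fold lower in PSC4 than in KPC4 in the control groups (log2 -2.47, SE 0.60, adjusted p = 0.00426). The highest PSC4 Control-SU library, at 21.8 CPM, was below the lowest KPC4 Control-PSC-SU library, at 48.1 CPM. The synthases Ptges, Ptges2 and Ptges3 did not pass the test, with differences of 0.040 (95% interval -0.76 to 0.84), -0.56 (-1.26 to 0.14) and 0.27 (-0.15 to 0.70) on the log2 scale. Without KPC4 Control-PSC-SU replicate 2, Ptges3 gave 0.53 and was called (adjusted p = 0.0333).

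Both receptor genes tested in the 2 lines, Ptger4 and Ptger1, were higher in PSC4. The EP3 gene Ptger3 had counts only in PSC4 and was not compared. Ptger4 was 1.77-fold higher (log2 0.83, SE 0.21, adjusted p = 0.00594), and its lowest Control-SU library, at 9.77 CPM, was above the highest KPC4 control library, at 6.84 CPM. Ptger1 was 4.82-fold higher (log2 2.27, SE 0.42, adjusted p = 6.32e-04), with the same uncertainty about strand.

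In the Gem groups, 5 of the 8 members also differed between the lines, beside 47.5% of all genes. Ptgs1 (log2 1.71, adjusted p = 2.91e-04), Ptger1 (1.78, adjusted p = 0.00353) and Ptger4 (1.62, adjusted p = 3.18e-05) were again higher in PSC4, and so was Ptges3 (0.68, adjusted p = 0.0117). Ptgs2 was lower in PSC4 by 2.86-fold (log2 -1.52, SE 0.58, adjusted p = 0.0441), and its ranges overlapped, with 367 to 730 CPM in PSC4 and 476 to 2997 CPM in KPC4. For Pla2g4a the difference of 0.40 was not called (adjusted p = 0.0625). For Ptgs2, the order of the group means was PSC4 Control-SU, KPC4 Control-PSC-SU, PSC4 Gem-SU and KPC4 Gem-PSC-SU from low to high, and the last pair overlapped. For Ptger4 the order was KPC4 Control-PSC-SU, KPC4 Gem-PSC-SU, PSC4 Control-SU and PSC4 Gem-SU, and the first pair overlapped.

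**Figure D4:**
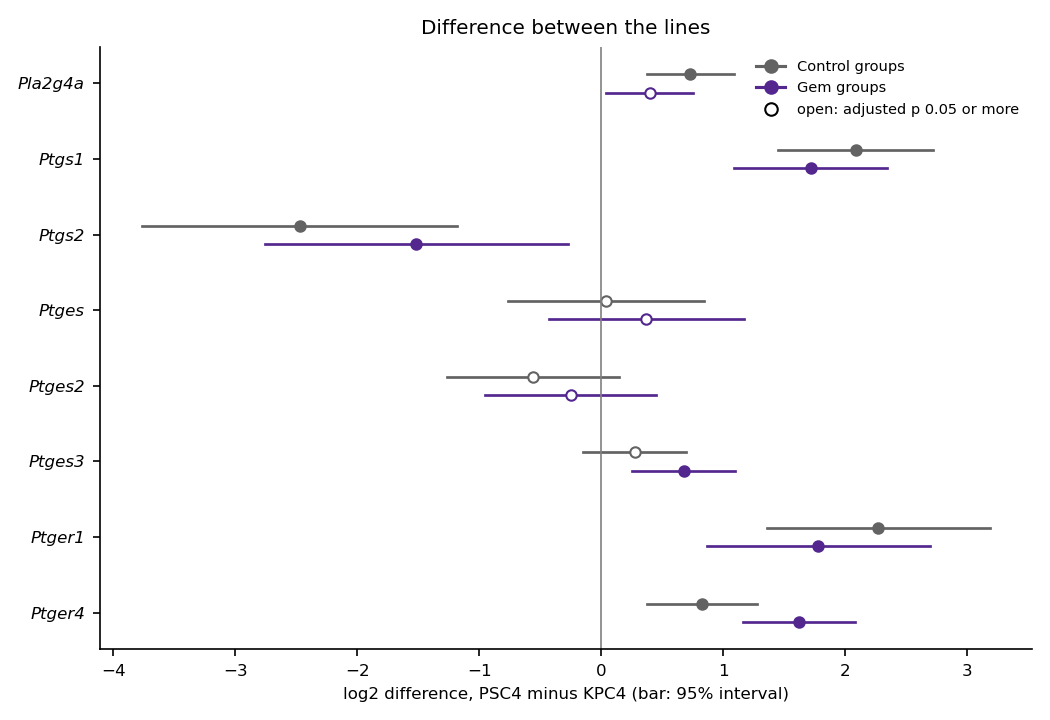
Log2 difference of each tested member between the lines, PSC4 minus KPC4, for the control groups (grey) and the Gem groups (purple); bars are 95% intervals and filled points have an adjusted p under 0.05. Ptgs1, Ptger1 and Ptger4 lie to the right of 0 and Ptgs2 to the left in both contrasts, at -2.47 and -1.52.

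Whether a member responded differently in the lines was tested as an interaction term, fitted to the 12 libraries together. No member was called (9.85% of all genes were), and 1 of the 8 had an unadjusted p under 0.05, beside 3474 of all 13632 genes. Ptger4 gave a log2 difference between the changes of 0.80 (SE 0.30, 95% interval 0.16 to 1.43, adjusted p = 0.109), larger in PSC4. For Ptgs2 it was 0.96 (SE 0.80, 95% interval -0.78 to 2.69, adjusted p = 0.488). With the replicate number as a block within each line, 21.9% of all genes were called and 1 member was, Ptgs2 at 1.08 (SE 0.32, adjusted p = 0.0349). That call rests on a block that also covers PSC4, whose numbers were not otherwise taken as pairs. In PSC4, libraries with numbers 2 and 3 did not correlate best with their own number, whereas number 1 and every number of KPC4 did.

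The rest of the pathway was read from lists of 109 further matched genes. In PSC4, 50 of 91 tested genes of these lists were called, 21 higher and 29 lower, a share of 54.9% beside 46.3% over all genes (24.3% higher and 22.0% lower). In single lists the share called ran from 42.9% for transport and breakdown to 72.7% for the cAMP and CREB response genes, and for transport and for other phospholipase A2 genes (44.4%) it was not above the share over all genes. Without Gem-SU replicate 2 the count was 32, while 4061 genes in all were called in place of 6177. In KPC4, none of 85 was called with unpaired libraries (15 had an unadjusted p under 0.05, beside 2251 of all 13236 genes). DESeq2 called 11, beside 6.22% of all genes. The replicate block gave 6, all higher, a share of 7.06% that was not above the 8.85% over all genes.

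The list of other prostanoid receptors held, besides receptors for other prostanoids, the EP3 gene Ptger3 and Ptgfrn, whose product binds the receptor for prostaglandin F2 alpha. Of its 6 genes tested in PSC4, 4 fell and none rose (66.7%, beside 22.0% of all genes called as lower), and their median log2 change was -1.44. Those that fell were the receptor genes Ptgfr, Ptgir and Ptgdr2, and Ptgfrn. Ptgfr, the receptor for prostaglandin F2 alpha, went from 5.99 ± 1.59 CPM (SD, n = 3) to 0.407 ± 0.134 CPM (SD, n = 3), a log2 change of -3.81 (SE 0.39, adjusted p = 1.98e-04). Ptgfrn changed by -1.56 (adjusted p = 6.09e-04), and Ptgir, the prostacyclin receptor, by -1.32 (adjusted p = 0.0204). Ptgir was not called without Control-SU replicate 3, Gem-SU replicate 2 or Gem-SU replicate 3 (adjusted p up to 0.0829). Ptgdr2, a receptor for prostaglandin D2, changed by -2.29 (adjusted p = 0.0356), from a mean of 0.959 to 0.189 CPM. Ptger3, the receptor EP3, stood at 1.05 ± 0.51 CPM (SD, n = 3) and 0.937 ± 0.147 CPM (SD, n = 3) and was not called (adjusted p = 0.862).

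Of 7 transport and breakdown genes tested in PSC4, 3 rose and none fell, a share called of 42.9% beside 46.3% over all genes. Slco2a1, the prostaglandin uptake transporter, went from 45.7 ± 8.23 CPM (SD, n = 3) to 76.7 ± 11.2 CPM (SD, n = 3), a log2 change of 0.79 (adjusted p = 0.00828). Slco3a1, another transporter that accepts prostaglandins, rose by 0.63 (adjusted p = 0.0339) and Cbr3, a carbonyl reductase, by 0.78 (adjusted p = 0.0390). Cbr3 lost its call without any single library (adjusted p from 0.0521 to 0.106), and Slco3a1 without Control-SU replicate 1 or 2 or Gem-SU replicate 2 or 3 (up to 0.111). The export pump Abcc4 gave 0.49 and was not called (adjusted p = 0.0766). In the control groups Abcc4 was lower in PSC4 than in KPC4, with means of 30.8 and 116 CPM (log2 -1.91, SE 0.20, adjusted p = 2.86e-06).

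Of the other enzymes of the pathway, more fell than rose in PSC4, where 22.0% of all genes were called as lower and 24.3% as higher. The share called was 44.4% for other phospholipase A2 genes and 60% for other synthases, beside 46.3% over all genes. It was 63.6% for arachidonate uptake and remodelling and 50% for the lipoxygenase and epoxygenase branch. Of 9 other phospholipase A2 genes and regulators, 4 fell and none rose, among them Pla2g7 (log2 -1.80, adjusted p = 6.61e-04), Pla2g15 (-0.94, adjusted p = 0.00649) and Anxa1 (-0.92, adjusted p = 0.00446). Pla2g7 encodes the platelet-activating factor acetylhydrolase and Anxa1 encodes annexin A1, an inhibitor of phospholipase A2. Of 5 other prostanoid synthases, 3 fell, which were Gstm2 (-0.98, adjusted p = 0.0149), Akr1b8 (-0.83, adjusted p = 0.00773) and the prostacyclin synthase Ptgis (-0.58, adjusted p = 0.0199). Ptgis was not called without Control-SU replicate 1 or 3 or Gem-SU replicate 2 or 3 (adjusted p up to 0.0817), nor Gstm2 without Gem-SU replicate 2 (adjusted p = 0.0674). Among 11 genes of arachidonate uptake and remodelling 6 fell and 1 rose, with Fads1, a desaturase in arachidonate synthesis, at -1.39 (adjusted p = 8.01e-04), Acsl4 at -0.83 (adjusted p = 0.00891), Mboat7 at -0.74 (adjusted p = 0.00567) and Acsl1 at 0.59 (adjusted p = 0.00773). In the lipoxygenase and epoxygenase branch, 2 of 6 genes fell and 1 rose, with Alox5ap, which presents arachidonate to 5-lipoxygenase, at -1.41 (adjusted p = 0.0151, or 0.0605 without Gem-SU replicate 2).

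Downstream of EP receptors, genes that cAMP and CREB are known to induce were higher in PSC4 with Gem-SU. Of 11 tested, 8 rose and none fell, with a median log2 change of 2.29. Over all genes tested in PSC4, 24.3% were called as higher. The list was chosen with earlier results of these data known, so the count is a description and not a test. Fosb, an AP-1 subunit, went from 2.15 ± 0.41 CPM (SD, n = 3) to 90.7 ± 28.1 CPM (SD, n = 3), Areg, an EGF receptor ligand, changed by 4.29 (adjusted p = 1.12e-04) and the nuclear receptor Nr4a1 by 3.61 (adjusted p = 4.79e-04). Many other stimuli induce the same genes, and a part of EP receptors in these changes was not tested. Of 20 genes for parts of the cAMP cascade itself, 8 fell and 2 rose, a share of 50% beside 46.3% over all genes. Gnai2, an inhibitory G-protein subunit, changed by -0.83 (adjusted p = 0.0135), and the protein kinase A regulatory subunits Prkar1a by -0.80 (adjusted p = 0.00343) and Prkar2a by 0.63 (adjusted p = 0.00931). The phosphodiesterase gene Pde4b changed by 0.79 (adjusted p = 0.0141). Without Gem-SU replicate 2, Gnai2 and Pde4b were not called (adjusted p = 0.0701 and 0.0653). In KPC4 with the replicate block, 4 of 9 tested cAMP and CREB response genes rose, among them Dusp1 (log2 4.5, adjusted p = 0.00110), Areg (3.03, adjusted p = 0.0163) and Nr4a1 (1.68, adjusted p = 0.0173). Over all genes, 8.85% were called in that fit.

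Factors known to act on Ptgs2 transcription or mRNA stability were called in PSC4 at a share near that of all genes. Of 16 tested, 6 rose and 2 fell, which is 50% beside 46.3% over all genes. Fos went from 3.75 ± 1.06 CPM (SD, n = 3) to 243 ± 29.0 CPM (SD, n = 3), and Jun from 109 ± 20.5 CPM (SD, n = 3) to 838 ± 59.3 CPM (SD, n = 3). Zfp36, which binds AU-rich elements and destabilises Ptgs2 mRNA, rose by 2.07 on the log2 scale (adjusted p = 5.74e-04), whereas its relative Zfp36l2 changed by -1.36 (adjusted p = 0.00119). Cebpb, which encodes a C/EBP factor, changed by -1.18 in PSC4 (adjusted p = 0.0405), a call lost without Control-SU replicate 1 or 3 or Gem-SU replicate 2 or 3 (adjusted p up to 0.140). In KPC4 with the replicate block, Cebpb (1.22, adjusted p = 0.0140) and Zfp36 (1.86, adjusted p = 0.0199) rose, 2 of 16 (12.5%, beside 8.85% of all genes).

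**Figure D5:**
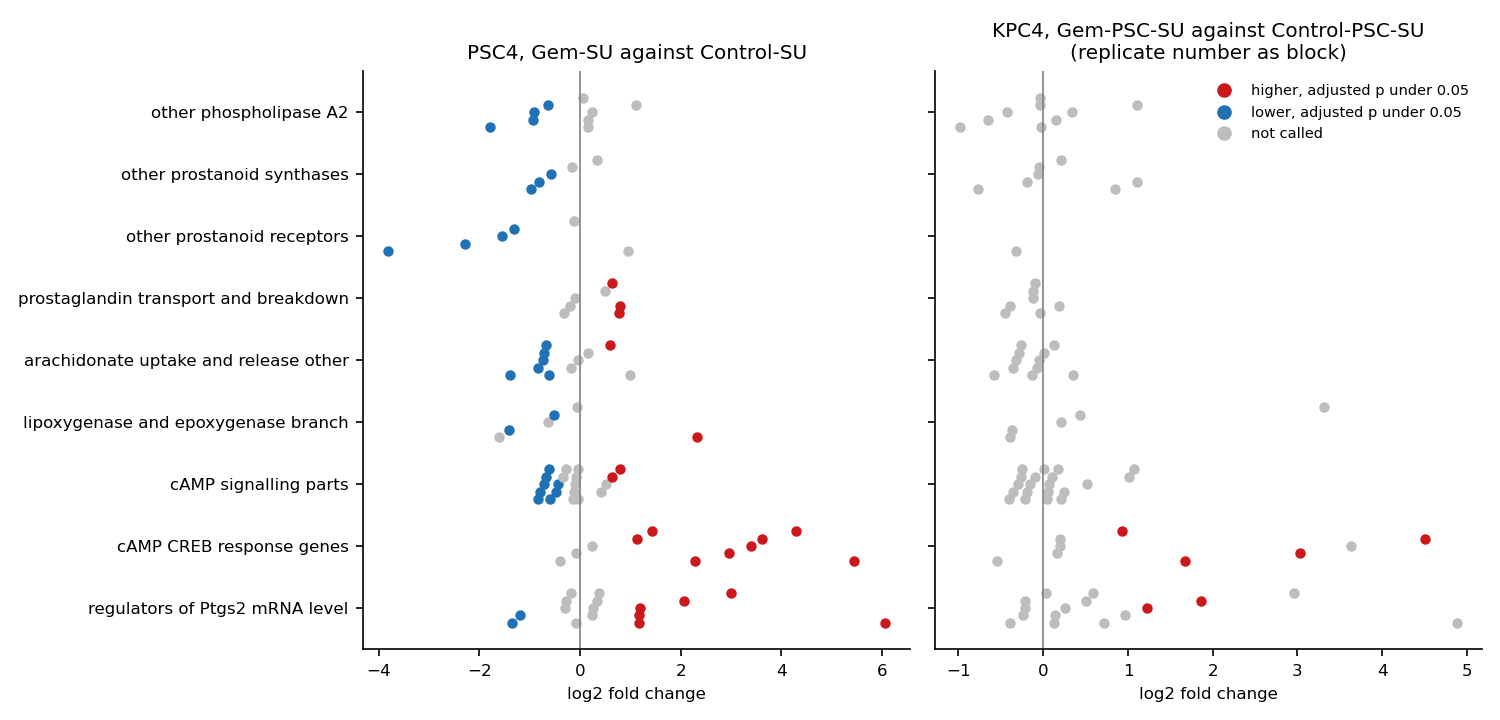
Log2 fold change of every tested gene of the further pathway lists, in PSC4 (left) and in KPC4 with the replicate number as a block (right); each point is a gene, red and blue mark an adjusted p under 0.05, and the horizontal axes differ. The 8 red points of the cAMP and CREB response genes and the 4 blue points in the row of other prostanoid receptors, 1 of which is Ptgfrn, are in the PSC4 panel.

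The genes whose level followed a member most closely over all 12 libraries were read from 12184 genes tested in both lines. For Ptgs2 they were Snapc1 (Pearson r = 0.978), Zfand2a (0.973), Eaf1 (0.973), Mxd1 (0.972) and Gdf15 (0.972). For Ptger4 they were Cyp4f17 (0.974), Slc22a21 (0.972), Mertk (0.970), Celf5 (0.969) and Csrnp2 (0.968). For Ptges the likeness was lower, with Ctsf at 0.903, Rnf207 at 0.838, Fam102a at 0.830, Lamb2 at 0.829 and Arhgap39 at 0.824. These correlations are descriptions of 12 libraries that share lines, treatments and depth.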

How the data were processed

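Total RNA of 12 cultures was sequenced, per the labels, and grouped by title. The authors deposited 1 table of raw counts per line, with gene identifiers and whole numbers only. The submitters' processing notes list FastQC, Trim Galore 0.6.10, cutadapt 5.2, Salmon, R 4.5.1, DESeq2 and the build GRCm39, without their roles, so the deposited counts may be rounded estimates. The strand setting is not given in the sources used here. The authors also deposited a table per line with log2 fold changes and adjusted p-values, used only where named.

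Symbols and exon lengths came from GENCODE M21 (GRCm38), which matched 99.7% of identifiers in each table, and promoter sequences from RefSeq (GRCm38.p6). That build differs from the submitters' build, so its coordinates locate only the printed sequences. Of the 10 members, 9 matched a RefSeq promoter entry (not Ptger1).

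Counts were fitted with edgeR 4.0.16 in R 4.3.3 (filterByExpr, TMM, robust quasi-likelihood test, Benjamini-Hochberg adjustment over all genes, threshold 0.05), per line or over 14360 genes of both tables for differences between lines. The fit was tested on simulated counts of independent libraries with the same fixed dispersion for every gene. That setting leaves out the wide spread and the likeness of same-numbered libraries seen in KPC4. The members and lists were chosen with earlier results of these data known. Further genes were named by list: those called with a mean of at least 50 counts, at most 3 a direction. Ptgdr2 is named as one of the prostanoid receptors. Ttc33 and Gm15937, which overlap Ptger4, were chosen after the overlaps were seen, and 1 other result on overlaps is not reported here. The main KPC4 fit was unpaired, and its replicate numbers were taken as pairs only in the alternative fits with the block. The labels do not say that same-numbered cultures belong together. The pairing was read from these same data, in which same-numbered KPC4 libraries deviated from their group means together (correlations of 0.351, 0.436 and 0.211). No pair of replicates was close to sampling noise (chi-square per degree of freedom at least 32.0).

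Alternatives were DESeq2 1.42.0 and its size factors, no filter, a minimum of 10 counts per library, the replicate number as a block, robust estimation off, 1 fit of all 12 libraries, each library left out and, for levels per length, the longest transcript. DESeq2 with the block and leaving out number 2 of KPC4 were chosen after seeing the data.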

Additional observations from a re-analysis of the deposited data

Results flagged for a closer look

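The change with the gemcitabine-conditioned supernatant differed between the lines, by the interaction test in one edgeR fit of all 12 libraries, for 7 of the named genes of the wider pathway and for no member. The named genes were chosen by their calls and largest changes in PSC4, or in KPC4 with the replicate block. That choice favours a difference between the lines among them, so the count of 7 is not a test of the pathway. Each value is the log2 change in PSC4 minus that in KPC4 in that fit. Changes given for a single line come from the fit of that line by itself, so they do not subtract to it exactly. Pla2g7 gave -2.20 (adjusted p = 0.00110), with a change of -1.80 in PSC4 and 0.35 in KPC4. Anxa1 gave -1.13 (adjusted p = 0.0349), Ptgfrn -1.33 (adjusted p = 0.0231) and Fads1 -1.20 (adjusted p = 0.0180). Prkar1a gave -0.85 (adjusted p = 0.0214) and Zfp36l2 -1.45 (adjusted p = 0.00642). Cebpb gave -2.52 (adjusted p = 0.0196), with a change of -1.18 in PSC4 and 1.29 in KPC4. Of all 85 pathway genes tested, 10 were called in this contrast (11.8%), beside 9.85% of all genes. The remaining 3 had positive values and are named after these were seen: Nr4a2 at 1.91 (adjusted p = 0.00460), Rgs2 at 2.68 (adjusted p = 0.00521) and Nfatc1 at 0.85 (adjusted p = 0.0330). Nr4a2 rose by 1.42 in PSC4, while its KPC4 mean went down from 29.2 to 20.1 CPM. The KPC4 means of Rgs2 and Nfatc1 went from 6.74 to 7.89 CPM and from 24.0 to 29.0 CPM. With the replicate block 22 of the 85 were called (25.9%), beside 21.9% of all genes.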

How the results depend on the processing

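In PSC4, Ptgs2 and Ptger4 were called under all 14 alternatives, with log2 changes from 4.61 to 5.12 and from 0.92 to 1.10. DESeq2, with or without the replicate block, called 4 members there, adding Ptges3 and Ptger1, and leaving out single libraries gave 2 to 3. With the replicate block, the PSC4 libraries again gave 2 members and 57 pathway genes. The count over all genes moved as well, between 4061 and 7325 over the PSC4 fits, so these counts do not single out the pathway. The PSC4 numbers were not taken as pairs, since libraries 2 and 3 did not correlate best with their own (0.428, -0.0548 and 0.102 for numbers 1 to 3). Pairing was not tested in either line. The count of PSC4 pathway genes was 32 to 54 with single libraries left out, the lowest without Gem-SU replicate 2, beside 4061 to 6826 of all genes.

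In KPC4, Ptgs2 was the 1 member called by the replicate block, by DESeq2, by DESeq2 with the block, in 1 fit of all 12 libraries (adjusted p = 0.00914) and without number 2, and leaving out single libraries gave 0 to 1. Pathway genes called in KPC4 numbered 6 with the replicate block, 11 with DESeq2, 15 with DESeq2 and the block, 9 in the fit of all 12 libraries and 0 to 10 with single libraries left out. The count over all genes in KPC4 moved too, to 1171 with the replicate block, 823 with DESeq2, 2184 with DESeq2 and the block, 610 in the fit of all 12 libraries, 244 without number 2 and 0 to 1129 with single libraries left out (1129 without Gem-PSC-SU replicate 1). The interaction called 1 member, Ptgs2, with the replicate block and with DESeq2 and the block, and 0 in every other fit. The line difference had 20 alternatives, 1 of which compared the Gem groups in place of the control groups. That contrast called 5 members, with Ptges3 in place of Pla2g4a. Every other fit called the 5 members of the main fit, with Ptges3 as a sixth without KPC4 Control-PSC-SU replicate 2. Between 4739 and 7266 genes in all were called in these fits. The cause of these differences was not tested.

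Of 544 alternative values for member changes, 21 changed sign, none of them called. Without the low-count filter, Ptgs1 in KPC4 gave -0.00175 and Ptges in the line difference -0.0185. Ptges in KPC4 gave -0.0180 with the replicate block and -0.00244 with DESeq2 and the block. Without number 2, Ptges2 gave 0.058 and Ptges3 1.79e-05 in KPC4. Over single libraries left out, KPC4 values ran from -0.38 to 0.37 for Ptgs1, -0.47 to 0.40 for Ptges, -0.45 to 0.091 for Ptges2 and -0.27 to 0.14 for Ptges3. Ptges2 ran from -0.19 to 0.35 in PSC4 and from -0.040 to 0.56 in the interaction, Ptgs1 from -0.71 to 0.0079 in the interaction, and Ptges from -0.20 to 0.22 in the line difference. With the longest transcript as length, Ptgs2 was 10.1% of the cyclooxygenase level in PSC4 Control-SU, beside 12.9%. Counts were low for Hpgd and, in KPC4, for Ptger1, which had 21 to 67 counts a library.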
